A study of Mus musculus with 9 samples.

Results

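The mitosis and spindle genes are a list of 30 genes that cells use to enter mitosis, build the spindle, hold sister chromatids until every chromosome is attached, and divide. They were found by symbol in a table of 10340 genes, and all 30 were present, so no member was lost to the limit of the table, which holds genes above 1 FPKM in every library. FPKM is a fragment count scaled by transcript length and by the mapped fragments of the library. RNA came from NIH 3T3 cells, an immortalised mouse fibroblast line grown on plastic, in 3 groups of 3 independent cultures. One group carried shCNKSR2_1, a lentiviral short hairpin RNA against Cnksr2, a scaffold gene of Ras signalling. Another carried shCNKSR2_2, whose sequence differs but whose target is the same. The control group carried shControl, directed at red fluorescent protein (RFP), for which these cells have no gene. All 9 cultures had thus been infected with a lentivirus and selected for it. The series concerns sex bias and X-linked tumour suppressors. Cnksr2 itself was not among the 10340 genes of the table, so its knockdown could not be checked here. The groups compared are therefore hairpins and not measured levels of Cnksr2.

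Mitosis is started by the kinase CDK1 bound to a B-type cyclin, and ended when the anaphase-promoting complex, switched on by CDC20, destroys that cyclin. Between these steps kinetochores on the centromeres catch spindle microtubules, and the spindle assembly checkpoint holds CDC20 back until all have done so. Most of these genes are transcribed late in the cell cycle, when the MuvB complex with its partners B-MYB and FOXM1 acts at a short promoter element called CHR, next to CCAAT boxes bound by NF-Y. Their summed RNA is therefore widely used as a measure of how many cells in a culture are dividing. In bulk RNA, fewer cells in mitosis and less of these RNAs per cell cannot be told apart.

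All 11 fibroblast markers listed were in the table, 0 of 6 epithelial and 0 of 5 endothelial markers were, and of 6 leukocyte markers only the lysosomal gene Cd68 was, at 1.90 to 3.58 FPKM. The libraries differed in a way that the groups do not explain. In shCNKSR2_1 replicate 3, shCNKSR2_2 replicate 1 and shControl replicate 3, genes with GC-rich transcripts lay above their group mean and AT-rich ones below it (the 3 GC-linked libraries). Replicate 1 of shCNKSR2_1 also stood apart from the other libraries of its group, at -1.71 on the first principal component of all genes, against 4.63 and 5.98. FPKM values carry no fragment counts, so depth is unknown.

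The promoters of the genes show what they share in sequence. RefSeq windows on build GRCm38.p6, from 250 bases before the annotated start to 50 after it, were found by symbol for 27 of the 30 genes. A CHR, searched as TTTGAA or TTCGAA on both strands, stood in 21 of these 27 windows, against 13.5% of 10079 windows of genes in the table. CCAAT on either strand stood in 21 of 27, against 38.5%, and both motifs in 19 of 27, against 5.61%. Restricted to the 100 bases around the start, a CHR was found in 20 of 27 windows, against 3.57%. Only the first window listed was taken for each of the 27 genes. The 10079 include every window of a gene, so a gene with several starts can count more than once. The stretches from 100 bases before the start to 30 after it are printed below for genes that fell with both hairpins (Birc5, Nuf2, Top2a and Ttk), for those that rose (Cdk1 with both, Anln with shCNKSR2_2) and for Cdc20, which passed in neither comparison. Capitals mark CHR and CCAAT letters on either strand, and these motifs do not overlap each other in the stretches shown.
Birc5: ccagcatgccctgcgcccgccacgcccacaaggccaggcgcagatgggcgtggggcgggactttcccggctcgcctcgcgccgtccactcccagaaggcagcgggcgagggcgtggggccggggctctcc
Nuf2: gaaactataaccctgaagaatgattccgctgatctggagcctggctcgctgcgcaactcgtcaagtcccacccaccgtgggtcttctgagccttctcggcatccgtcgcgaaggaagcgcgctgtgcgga
Top2a: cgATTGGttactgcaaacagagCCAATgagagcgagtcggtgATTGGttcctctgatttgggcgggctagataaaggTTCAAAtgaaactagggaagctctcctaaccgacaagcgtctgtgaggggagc
Ttk: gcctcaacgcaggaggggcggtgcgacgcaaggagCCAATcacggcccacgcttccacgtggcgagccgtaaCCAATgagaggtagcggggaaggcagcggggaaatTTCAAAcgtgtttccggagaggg
Cdk1: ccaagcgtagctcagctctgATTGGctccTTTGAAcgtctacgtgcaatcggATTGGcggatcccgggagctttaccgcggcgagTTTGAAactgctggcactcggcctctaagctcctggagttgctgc
Anln: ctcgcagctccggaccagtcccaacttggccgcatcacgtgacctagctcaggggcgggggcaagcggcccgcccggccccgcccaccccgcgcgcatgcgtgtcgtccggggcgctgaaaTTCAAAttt
Cdc20: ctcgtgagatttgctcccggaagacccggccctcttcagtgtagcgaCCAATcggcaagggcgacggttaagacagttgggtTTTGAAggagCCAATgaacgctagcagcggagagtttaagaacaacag
These stretches lie at chr11:117849137-117849266 (plus strand) for Birc5, chr1:169531435-169531564 (minus) for Nuf2, chr11:99024160-99024289 (minus) for Top2a, chr9:83834589-83834718 (plus) for Ttk, chr10:69352883-69353012 (minus) for Cdk1, chr9:22389177-22389306 (minus) for Anln and chr4:118437314-118437443 (minus) for Cdc20. The submitters' build was mm9, so these coordinates apply only to the sequences.

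The comparison of each Cnksr2 hairpin with shControl asked which of these genes differed. Changes were small with both hairpins and mostly downward. Of the 30 genes, 9 were lower and 1 was higher in cells with shCNKSR2_1, while 14 were lower and 2 higher in cells with shCNKSR2_2. Both comparisons use the same control libraries and are therefore not independent. The largest change was that of Birc5, and no gene reached 1.5-fold. The mean lay more than 20% below control for 1 gene with shCNKSR2_1 (Birc5) and for 3 genes with shCNKSR2_2 (Birc5, Top2a and Nuf2). A gene is called here at a Benjamini-Hochberg adjusted p under 0.05 over all 10340 genes in limma, on log2(FPKM + 1), and fold changes are on that scale.

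The background for these counts is how often any gene was called. With shCNKSR2_1 it was 32.8% in either direction, 19.3% lower and 13.6% higher, against 33.3%, 30% and 3.33% of the mitosis and spindle genes. With shCNKSR2_2 it was 48.2%, 28.2% lower and 20.0% higher, against 53.3%, 46.7% and 6.67%. The share called in either direction was thus near that of all genes. Groups that did not overlap were found for 5 genes above and 13 below control with shCNKSR2_1, against 17.6% and 26.6% of all genes (44.2% in either direction). With shCNKSR2_2 they were found for 4 genes above and 15 below, against 24.8% and 34.7% (59.6% in either direction). The median log2 fold change of the 30 genes was -0.058 with shCNKSR2_1 and -0.082 with shCNKSR2_2, against -0.025 and -0.029 over all genes. With shCNKSR2_1 the median of the 30 was -0.032 after median-ratio rescaling and -0.022 with the GC trend removed, and with shCNKSR2_2 it was -0.053 and -0.044. The balance of higher and lower calls depended on scaling as well. Median-ratio rescaling gave 4 higher and 7 lower with shCNKSR2_1, adding Mad2l1, Cdc20 and Cenpa as higher, and 3 higher and 11 lower with shCNKSR2_2, while all genes called with shCNKSR2_1 were 53.4% higher under that scaling and 41.4% without it. Summed over the 30 genes, the level was 1518 ± 23.0 FPKM with shCNKSR2_1, 1457 ± 13.1 with shCNKSR2_2 and 1603 ± 14.5 with shControl (SD, n = 3 each), and the 3 groups did not overlap. Much of the difference in this sum lay in Birc5 and Top2a. Birc5 averaged 133, 123 and 177 FPKM with shCNKSR2_1, shCNKSR2_2 and shControl, and Top2a averaged 156, 139 and 187. The sum therefore does not show a fall across the list. The 95% intervals of the genes that were not called lay between -0.23 and 0.22 with shCNKSR2_1 and between -0.22 and 0.18 with shCNKSR2_2.

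**Figure D1:**
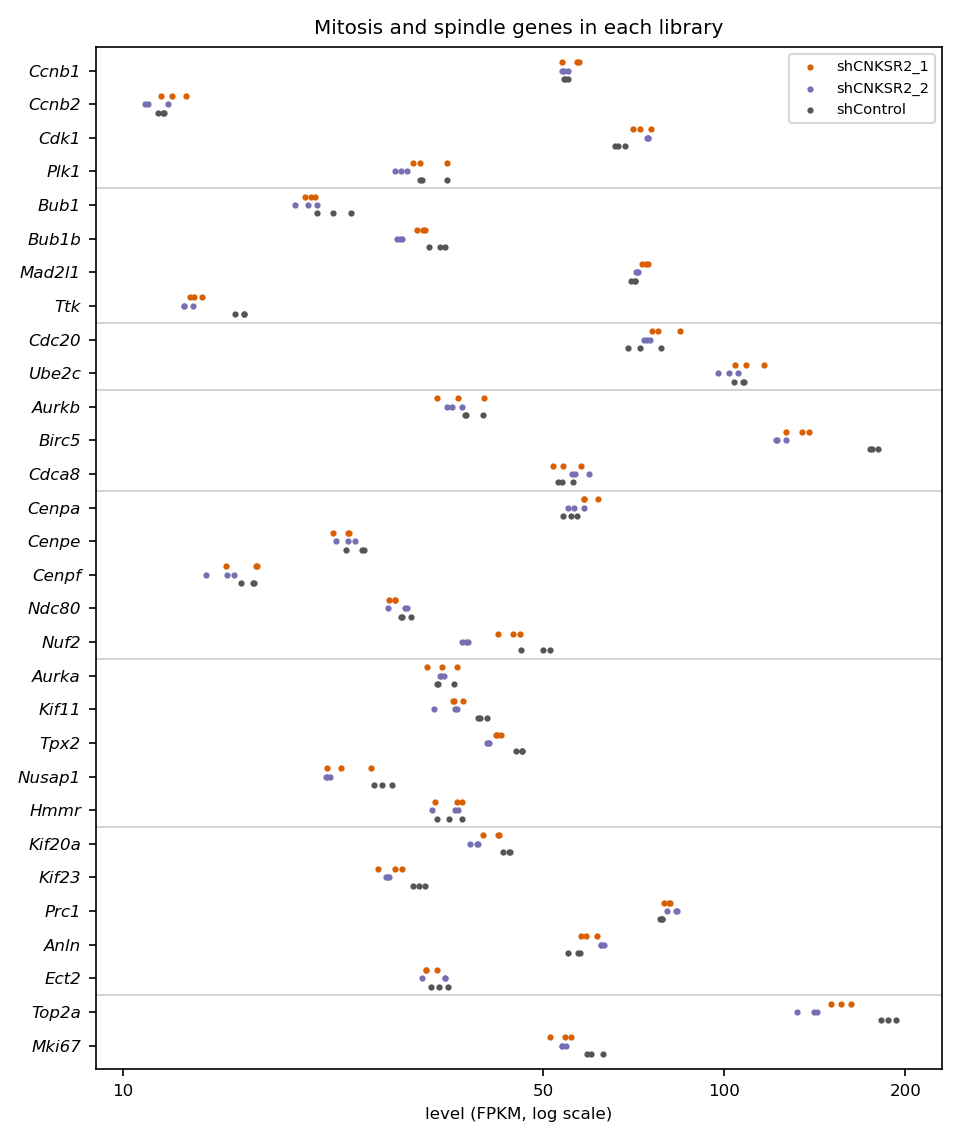
Level of each of the 30 genes in every library (FPKM, log scale), with genes grouped by role and 1 point per library. Birc5 shows the clearest gap, with 122 to 138 FPKM in the 6 hairpin libraries against Cnksr2 and 175 to 180 in the 3 control libraries.

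**Figure D2:**
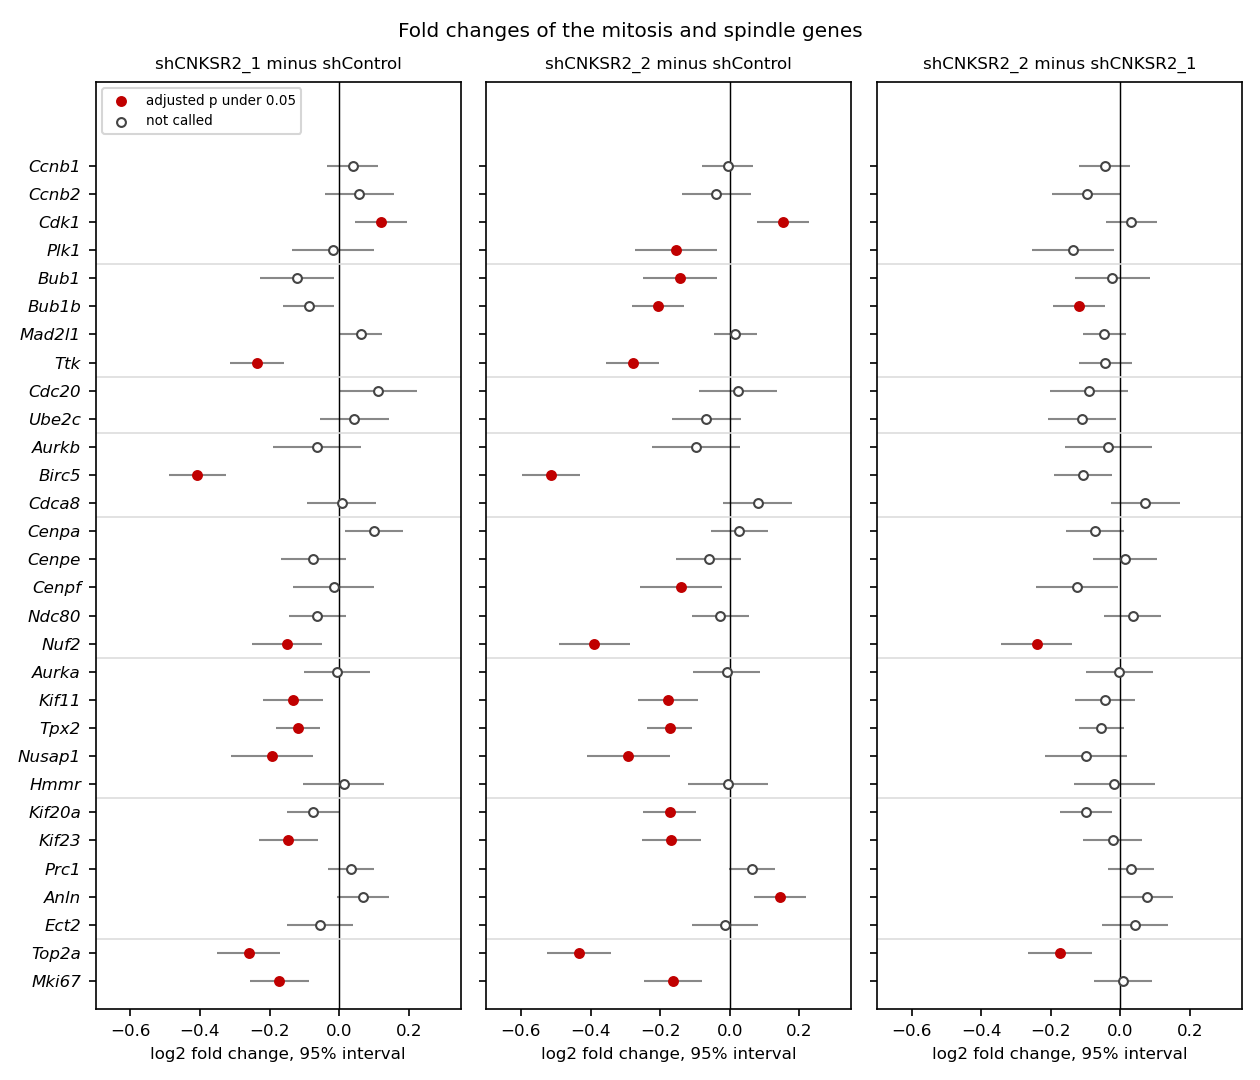
Log2 fold change of each gene (point) with its 95% interval (line), for shCNKSR2_1 minus shControl, shCNKSR2_2 minus shControl and shCNKSR2_2 minus shCNKSR2_1. Filled points passed an adjusted p of 0.05, which 10, 16 and 3 of the 30 genes did.

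Both genes for mitotic chromosomes fell with both hairpins, while 19.3% of all genes were called lower with shCNKSR2_1 and 28.2% with shCNKSR2_2. Top2a encodes the topoisomerase that untangles sister chromatids. Its level was 162, 156 and 151 FPKM with shCNKSR2_1, 132, 143 and 141 with shCNKSR2_2 and 193, 187 and 182 with shControl. No group overlapped with another. Top2a fell by 0.26 with shCNKSR2_1 (SE 0.04, adjusted p = 8.64e-04) and by 0.43 with shCNKSR2_2 (adjusted p = 1.40e-05). Mki67 encodes Ki-67, the protein that coats mitotic chromosomes and is stained as a mark of dividing cells. It stood at 55.5, 54.3 and 51.2 FPKM with shCNKSR2_1 and 53.7, 53.7 and 54.5 with shCNKSR2_2, against 62.7, 59.9 and 59.1 with shControl. Its fall was of like size with both hairpins, at -0.17 and -0.16 (SE 0.04, adjusted p = 0.00575 and 0.00476). Every hairpin library against Cnksr2 lay below every control library for both genes.

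In the chromosomal passenger complex, which corrects faulty attachments and then guides cytokinesis, 1 of 3 genes fell. The share of all genes called lower was 19.3% with shCNKSR2_1 and 28.2% with shCNKSR2_2. Birc5 encodes survivin, the subunit that brings the complex to the centromere. Its level was 134, 127 and 138 FPKM with shCNKSR2_1 and 127, 122 and 122 with shCNKSR2_2, against 176, 180 and 175 with shControl. Every library with a Cnksr2 hairpin was below the control range. The mean fell by 24.7% with shCNKSR2_1 and fell by 30.1% with shCNKSR2_2, a log2 fold change of -0.41 with shCNKSR2_1 (SE 0.04, adjusted p = 2.09e-05) and -0.51 with shCNKSR2_2 (adjusted p = 1.96e-06). The kinase of the complex, Aurkb, averaged 36.4 ± 3.25 FPKM with shCNKSR2_1, 35.4 ± 1.01 with shCNKSR2_2 and 38.0 ± 1.48 with shControl, and borealin, Cdca8, averaged 54.5 ± 2.99, 57.3 ± 2.02 and 54.1 ± 1.63 FPKM. Neither passed in either comparison (adjusted p from 0.163 to 0.913), but Cdca8 was called higher with shCNKSR2_2 with the GC trend removed.

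The ratio of partner genes within a library does not depend on any factor by which the whole library was scaled, though it can move with GC content. The ratio of Birc5 to Aurkb was 3.67 ± 0.317 with shCNKSR2_1, 3.49 ± 0.166 with shCNKSR2_2 and 4.66 ± 0.234 with shControl, and that of Birc5 to Cdca8 was 2.45 ± 0.129, 2.16 ± 0.0970 and 3.27 ± 0.128. For both ratios every hairpin library against Cnksr2 lay below every control library. The same held for the ratio of Aurkb to Cdca8, at 0.667 ± 0.0237 with shCNKSR2_1, 0.619 ± 0.0325 with shCNKSR2_2 and 0.702 ± 0.0102 with shControl. For the ratio of Mad2l1 to Cdc20 the groups overlapped in every comparison. Pairs of partners were chosen after their values were seen. Of 27 comparisons, made over 9 pairs, 17 had groups that did not overlap, and each of those had p = 0.1 in a two-sided exact permutation test, the smallest that 3 against 3 libraries can give (Benjamini-Hochberg adjusted 0.159).

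**Figure D3:**
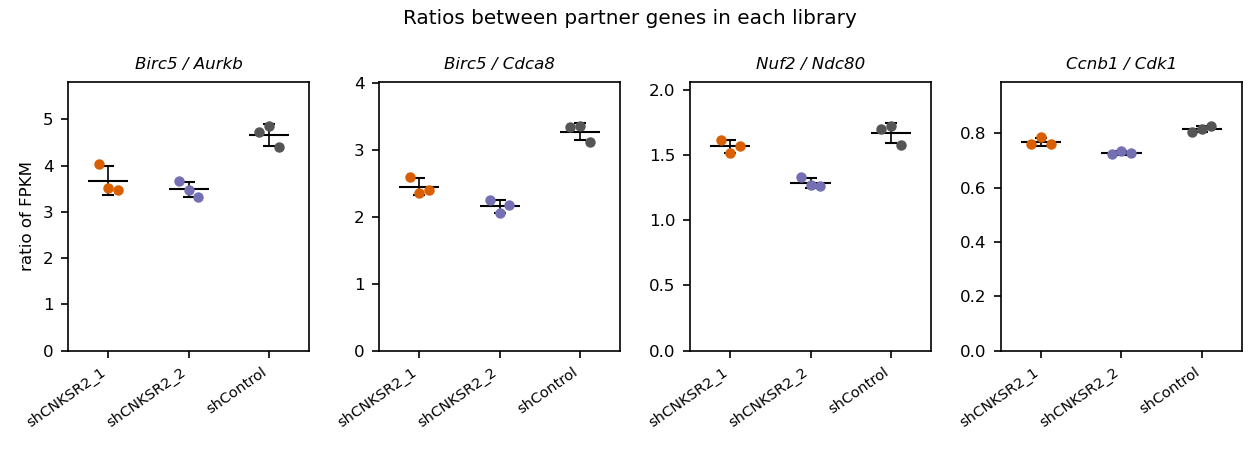
Ratio of FPKM between genes whose proteins sit in one complex, with 1 point per library, the mean as a line and the SD as a bar (n = 3 per group). Birc5 lies lower against Aurkb and against Cdca8 in all 6 libraries with a Cnksr2 hairpin, and Nuf2 against Ndc80 is lowest with shCNKSR2_2.

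Of 5 centromere and kinetochore genes, 1 fell with shCNKSR2_1 (Nuf2) and 2 fell with shCNKSR2_2 (Nuf2 and Cenpf). That is 20% and 40%, against 19.3% and 28.2% of all genes called lower. Nuf2 and Ndc80 encode partners in the NDC80 complex, which grips the microtubule. Nuf2 stood at 45.8, 42.0 and 44.4 FPKM with shCNKSR2_1 and at 36.6, 37.5 and 37.2 with shCNKSR2_2, against 51.2, 49.9 and 45.8 with shControl. With shCNKSR2_1 the groups were almost touching, and the fall of 0.15 (SE 0.05, adjusted p = 0.0291) was lost under median-ratio rescaling, when the other hairpin was kept out of the fit, and on leaving out shCNKSR2_1 replicate 2 or 3 or shControl replicate 1 or 2 (adjusted p up to 0.117). With shCNKSR2_2 the log2 fold change was -0.39 (SE 0.05, adjusted p = 5.96e-05). Ndc80 averaged 28.1 ± 0.377 FPKM with shCNKSR2_1, 28.9 ± 1.15 with shCNKSR2_2 and 29.4 ± 0.655 with shControl, and did not pass (adjusted p = 0.216 and 0.581). The ratio of Nuf2 to Ndc80 was 1.57 ± 0.0485 with shCNKSR2_1, 1.29 ± 0.0376 with shCNKSR2_2 and 1.67 ± 0.0759 with shControl, and the shCNKSR2_2 libraries did not overlap with either other group.

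Cenpf, a large protein of the outer kinetochore, averaged 14.6 ± 0.802 FPKM with shCNKSR2_2 and 16.2 ± 0.448 with shControl. That fall of 0.14 only just passed (adjusted p = 0.0489), was lost under both rescalings, with no variance trend and on leaving out any 1 of 6 libraries (shCNKSR2_2 replicate 1 or 3, shCNKSR2_1 replicate 2 or any control library, adjusted p up to 0.174), and did not pass with shCNKSR2_1 (-0.02, adjusted p = 0.848). Cenpe, the kinesin that carries chromosomes to the middle of the spindle, averaged 23.3 ± 0.789, 23.5 ± 0.843 and 24.5 ± 0.942 FPKM with shCNKSR2_1, shCNKSR2_2 and shControl. Cenpa, the histone variant that marks centromeres, averaged 59.4 ± 1.85, 56.5 ± 1.80 and 55.4 ± 1.46 FPKM in the same order. Neither passed, although all 3 shCNKSR2_1 libraries were above the controls for Cenpa (0.10, adjusted p = 0.0631).

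Of 4 checkpoint genes, 1 fell with shCNKSR2_1 and 3 fell with shCNKSR2_2. That is 25% and 75%, against 19.3% and 28.2% of all genes called lower. Ttk encodes MPS1, the kinase that starts checkpoint signalling at unattached kinetochores. It stood at 13.5, 12.9 and 13.1 FPKM with shCNKSR2_1 and 12.6, 13.1 and 12.6 with shCNKSR2_2, against 15.9, 15.9 and 15.3 with shControl. All 6 libraries with a Cnksr2 hairpin were below all controls, and Ttk fell by 0.24 and 0.28 (SE 0.03, adjusted p = 5.33e-04 and 8.94e-05). Bub1b, which encodes the inhibitor BUBR1, averaged 31.4 ± 0.493 FPKM with shCNKSR2_1, 28.8 ± 0.277 with shCNKSR2_2 and 33.4 ± 1.03 with shControl. Its fall passed with shCNKSR2_2 (-0.21 ± 0.03 SE, adjusted p = 5.10e-04) and not with shCNKSR2_1 (-0.09, adjusted p = 0.0663), although the groups did not overlap in either case. Bub1, a kinase of the kinetochore, fell by 0.14 with shCNKSR2_2 (adjusted p = 0.0309) and lay at -0.12 with shCNKSR2_1 (adjusted p = 0.0784). The call of Bub1 was lost under both rescalings and on leaving out shCNKSR2_2 replicate 1 or 3 or shControl replicate 1 or 2 (adjusted p up to 0.131). Mad2l1, which encodes the MAD2 protein that captures CDC20, averaged 73.8 ± 0.862, 71.5 ± 0.224 and 70.7 ± 0.653 FPKM with shCNKSR2_1, shCNKSR2_2 and shControl and was not called. Even so, all 6 libraries with a Cnksr2 hairpin were above all controls for Mad2l1. It was called higher with shCNKSR2_1 after median-ratio rescaling and with the GC trend removed.

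The kinase that drives mitosis went the other way. Cdk1 stood at 70.6, 72.3 and 75.5 FPKM with shCNKSR2_1 and at 74.2, 74.6 and 74.5 with shCNKSR2_2, against 68.3, 66.4 and 65.8 with shControl. It was above the control range in all 6 libraries and rose by 0.12 and 0.15 (SE 0.03, adjusted p = 0.0181 and 0.00340). The call with shCNKSR2_1 was lost under quantile normalization, without the 3 GC-linked libraries (0.08, adjusted p = 0.106) and on leaving out shCNKSR2_1 replicate 3 or shControl replicate 2 or 3. Both cyclin partners of Cdk1 were close to their controls. Ccnb1 averaged 56.0 ± 1.97 FPKM with shCNKSR2_1, 54.2 ± 0.670 with shCNKSR2_2 and 54.4 ± 0.395 with shControl, and Ccnb2 averaged 12.1 ± 0.581, 11.3 ± 0.553 and 11.6 ± 0.147 FPKM. The ratio of Ccnb1 to Cdk1 was 0.769 ± 0.0144 with shCNKSR2_1, 0.728 ± 0.00748 with shCNKSR2_2 and 0.814 ± 0.0111 with shControl, and no group overlapped with another. Plk1, the polo kinase that ripens centrosomes, fell by 0.15 with shCNKSR2_2 (adjusted p = 0.0347), a call lost under median-ratio rescaling and without shControl replicate 3 or shCNKSR2_2 replicate 2 or 3, and lay at -0.02 with shCNKSR2_1.

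Neither of the genes listed under the anaphase-promoting complex passed. Cdc20, its activator, averaged 79.3 ± 4.49 FPKM with shCNKSR2_1, 74.4 ± 0.907 with shCNKSR2_2 and 73.3 ± 4.74 with shControl. Ube2c, its ubiquitin-conjugating enzyme, averaged 109.7 ± 6.16, 101.5 ± 3.97 and 106.3 ± 2.22 FPKM in the same order. Replicates of Cdc20 were spread widely in shCNKSR2_1 (up to 84.3 FPKM in replicate 3) and in shControl (69.0 to 78.4), and those of Ube2c in shCNKSR2_1. The 95% interval for Cdc20 with shCNKSR2_1 ran to 0.22. Cdc20 was called higher with shCNKSR2_1 after median-ratio rescaling, with the GC trend removed and without shControl replicate 3.

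For spindle assembly, 3 of 5 genes fell with each hairpin. That is 60%, against 19.3% of all genes called lower with shCNKSR2_1 and 28.2% with shCNKSR2_2. Kif11 encodes the motor that pushes the spindle poles apart. It averaged 35.9 ± 0.769 FPKM with shCNKSR2_1 and 34.8 ± 1.65 with shCNKSR2_2, against 39.5 ± 0.737 with shControl, and fell by 0.13 and 0.18 (SE 0.04, adjusted p = 0.0242 and 0.00360). The call of Kif11 with shCNKSR2_1 was lost under median-ratio rescaling and on leaving out shCNKSR2_1 replicate 2 or 3 or shControl replicate 1 or 2 (adjusted p up to 0.0899). Tpx2, the activator of Aurora A on the spindle, averaged 42.0 ± 0.441, 40.4 ± 0.138 and 45.7 ± 0.646 FPKM with shCNKSR2_1, shCNKSR2_2 and shControl and fell by 0.12 and 0.17 (SE 0.03, adjusted p = 0.0103 and 6.62e-04). Nusap1, which bundles microtubules, stood at 25.8, 21.8 and 23.0 FPKM with shCNKSR2_1, at 21.8, 22.0 and 21.8 with shCNKSR2_2 and at 28.0, 26.9 and 26.1 with shControl. Replicate 1 of shCNKSR2_1 was nearly at the control range for Nusap1, and the falls were 0.19 and 0.29 (SE 0.05, adjusted p = 0.0187 and 0.00118). With shCNKSR2_1 this call was lost on leaving out shCNKSR2_1 replicate 2 or 3, shControl replicate 1 or the 3 GC-linked libraries (adjusted p up to 0.0965). Aurka, the Aurora A kinase itself, averaged 33.9 ± 1.93, 33.8 ± 0.274 and 34.0 ± 1.22 FPKM, and Hmmr, a spindle and hyaluronan-binding protein, 35.2 ± 1.86, 34.8 ± 1.86 and 34.9 ± 1.65 FPKM. Both were within 1% of their control mean with either hairpin, and their 95% intervals reached no farther than 0.13 on the log2 scale in either direction.

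In the central spindle and cytokinesis, genes moved in both directions. Kif23, the motor of centralspindlin, averaged 28.0 ± 1.32 FPKM with shCNKSR2_1, 27.5 ± 0.125 with shCNKSR2_2 and 31.0 ± 0.680 with shControl and fell by 0.15 and 0.17 (SE 0.04, adjusted p = 0.0144 and 0.00439). Its call with shCNKSR2_1 was lost on leaving out shCNKSR2_1 replicate 2, shControl replicate 1 or the 3 GC-linked libraries (adjusted p up to 0.0742). Kif20a, another central spindle kinesin, fell by 0.17 with shCNKSR2_2 (adjusted p = 0.00186) and lay at -0.07 with shCNKSR2_1 (adjusted p = 0.118). Anln encodes anillin, which ties the contractile ring to the membrane. It stood at 57.7, 61.3 and 58.8 FPKM with shCNKSR2_1 and at 62.3, 62.4 and 62.9 with shCNKSR2_2, against 57.1, 57.4 and 54.9 with shControl. All libraries with a Cnksr2 hairpin were above the control range, but only the rise of 0.14 with shCNKSR2_2 passed (SE 0.03, adjusted p = 0.00499), against 0.07 with shCNKSR2_1 (adjusted p = 0.148). Prc1, which crosslinks microtubules of the midzone, averaged 80.5 ± 1.08, 82.2 ± 1.62 and 78.6 ± 0.448 FPKM with shCNKSR2_1, shCNKSR2_2 and shControl. Ect2, which activates RhoA at the cleavage site, averaged 32.3 ± 0.782, 33.3 ± 1.69 and 33.6 ± 1.11 FPKM. Neither was called. Exons of Prc1, Kif20a and Ube2c share 911, 1271 and 592 annotated bases with a gene on the other strand (Rccd1, Cdc23 and Tnnc2). The library kit kept the strand, per the labels, but whether strand was used in counting is not given in the sources used here. Cdc23 itself fell by 0.21 with shCNKSR2_1 and 0.23 with shCNKSR2_2 (adjusted p = 0.00278 and 8.66e-04). Its part in the level of Kif20a was not tested.

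The motifs of the promoter windows can be set beside the calls. Of the 12 genes with a promoter window that fell with shCNKSR2_2, 9 held a CHR and 9 a CCAAT box, and of the 13 not called, 10 and 11 did. The windows of 4 genes held neither motif, and 3 of those genes (Birc5, Nuf2 and Nusap1) fell with both hairpins, while Mad2l1 was not called. Birc5, Nuf2 and Nusap1 were named for this after their values were seen.

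A direct test between the hairpins was made as well. With shCNKSR2_2, 3 of 30 genes were lower than with shCNKSR2_1 and 0 were higher by limma (8 lower and 1 higher at an unadjusted p under 0.05), against 11.4% lower and 9.13% higher of all genes (20.5% in either direction). Groups did not overlap for 9 genes that were lower with shCNKSR2_2 and 1 that was higher, against 19.5% and 18.4% of all genes (37.9% in either direction). Nuf2 differed by -0.24 ± 0.05 (SE, adjusted p = 0.00489), Top2a by -0.17 ± 0.04 (adjusted p = 0.0147) and Bub1b by -0.12 ± 0.03 (adjusted p = 0.0294). For each of these genes the libraries of shCNKSR2_2 lay below all of those of shCNKSR2_1. The difference of Bub1b was lost without any 1 library of shCNKSR2_2, without shCNKSR2_1 replicate 1 or 3 and without the 3 GC-linked libraries, and that of Top2a under quantile normalization (adjusted p = 0.0536). Without shCNKSR2_1 replicate 2, 6 genes were lower, with Ube2c, Birc5 and Kif20a added. For the other 27 genes the 95% intervals of the difference lay between -0.25 and 0.17.

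Replicate 1 of shCNKSR2_1, the library that stood apart, lay between its control and the other libraries of its group for most genes called. Over the 10 genes called with this hairpin it stood at a median of 0.645 of the way from the control mean to the mean of replicates 2 and 3 on the log2 scale, from 0.239 for Nusap1 to 1.10 for Tpx2. Birc5 was at 0.944 of the way. Left out, it changed no call among the 30 genes with shCNKSR2_1 (9 lower, 1 higher). Without shControl replicate 1 or shCNKSR2_1 replicate 2, 5 genes were lower, Nuf2, Kif11, Nusap1 and Kif23 being lost in both cases. Without shCNKSR2_1 replicate 3, 6 were lower and 0 higher, and Cdk1, Nuf2, Kif11 and Nusap1 were lost. Ttk, Birc5, Tpx2, Top2a and Mki67 kept their call with both hairpins under every setting run except the fit with replicate 1 as the sole shCNKSR2_1 library, where the spread comes from the other groups alone. There Tpx2 lay at -0.13 and Mki67 at -0.12 with that hairpin, neither called, against -0.12 and -0.17 with all 3 libraries.

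Spread between replicates followed the base composition of the transcripts. GC content of the longest protein-coding transcript ran from 40.1% for Mad2l1 to 56.0% for Plk1. Across the 30 genes, the deviation of a library from its group mean correlated with GC content at r = 0.769 in shCNKSR2_1 replicate 3, 0.620 in shCNKSR2_2 replicate 1 and 0.860 in shControl replicate 3, and at -0.784 in shControl replicate 1. In the other libraries r lay between -0.556 and -0.355. These are descriptions across genes that share a library, and the deviations of a group sum to 0, so they are not independent. Plk1, at the GC-rich end, had 34.5, 29.7 and 34.6 FPKM in the 3 libraries with a positive r, against 30.4 and 31.1 in the other libraries with shCNKSR2_1, 28.4 and 29.0 in those with shCNKSR2_2 and 31.1 and 31.5 in those with shControl. The fold changes followed GC content less closely (r = 0.298 with shCNKSR2_1 and 0.177 with shCNKSR2_2). Without the 3 libraries, 7 genes were lower and 0 higher with shCNKSR2_1 (Cdk1, Nusap1 and Kif23 being lost), and 14 lower and 2 higher with shCNKSR2_2. With the GC trend removed, 9 were lower and 5 higher with shCNKSR2_1, and 14 lower and 4 higher with shCNKSR2_2. Under that setting the share of all genes called was 41.3% and 55.2%, and 51.3% and 53.1% of those calls were higher. The same setting also recentred each library. With it the median log2 fold change over all genes was -0.0019 with shCNKSR2_1 and 0.0053 with shCNKSR2_2, against -0.025 and -0.029 in the main fit. Effects of GC content and of scaling cannot be told apart in these counts.

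**Figure D4:**
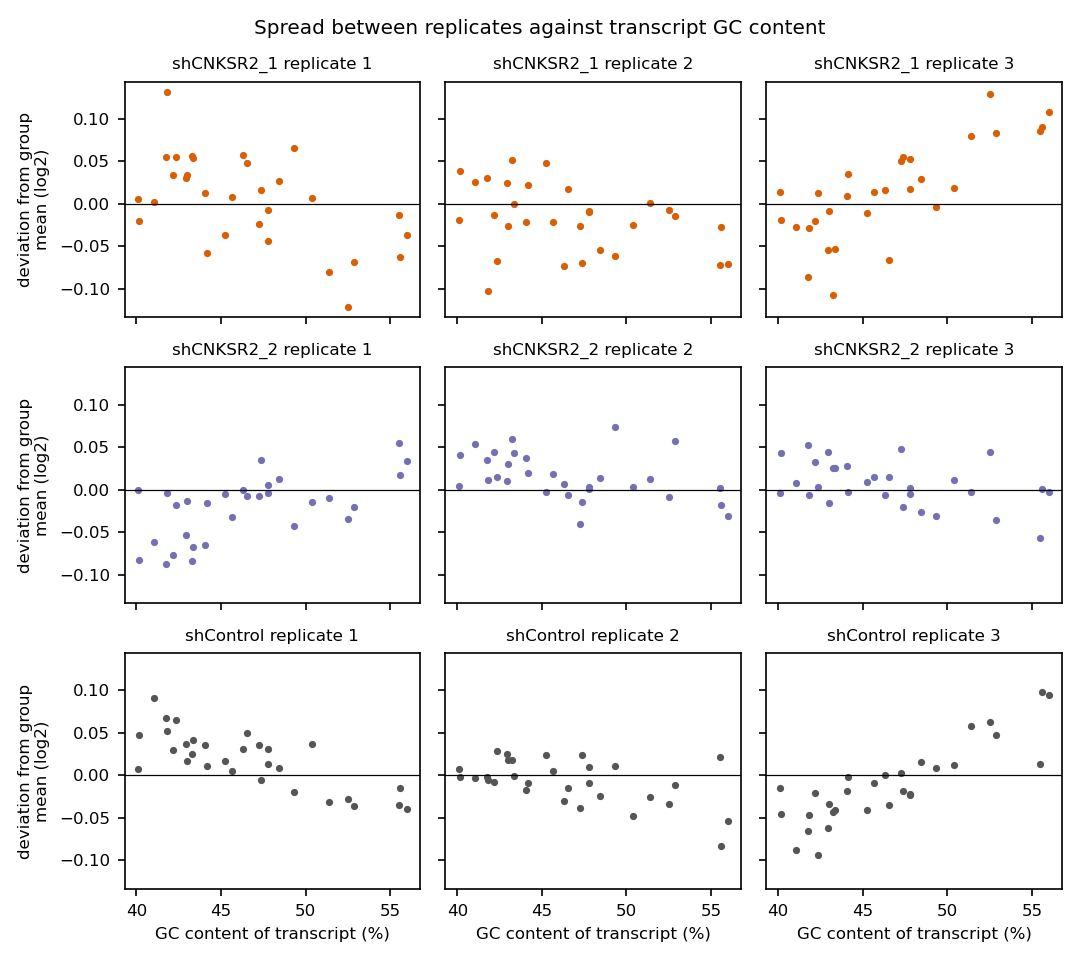
Deviation of each of the 30 genes from its group mean (log2 of FPKM + 1) against the GC content of its longest protein-coding transcript (%), in 1 panel per library. The points slope upward in shCNKSR2_1 replicate 3, shCNKSR2_2 replicate 1 and shControl replicate 3 (r = 0.769, 0.620 and 0.860) and downward in the others.

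Other genes of mitosis, 150 measured of 154 listed, were counted in the same fit. Of these, 42 were lower and 4 higher in cells with shCNKSR2_1, while 53 were lower and 13 higher in cells with shCNKSR2_2, which is 28.0% and 35.3% lower against 19.3% and 28.2% of all genes. The shares higher were 2.67% and 8.67%, against 13.6% and 20.0% of all genes, and the shares in either direction, 30.7% and 44.0%, were below the 32.8% and 48.2% of all genes. With the GC trend removed, 12 and 25 were higher. Among other spindle motors and pole proteins, 12 of 31 fell with shCNKSR2_1 and 14 with shCNKSR2_2, and 1 rose with each. Ckap2l, a spindle microtubule protein, fell by 0.40 and 0.51 (adjusted p = 6.99e-05 and 6.46e-06), and the motor Kif15, which shares work with Kif11, by 0.36 and 0.39. Among other kinetochore and checkpoint genes, 12 of 38 fell with shCNKSR2_1 and 14 with shCNKSR2_2, and 2 rose with each. Zwint, which links the outer kinetochore to the checkpoint, rose with both hairpins, to 65.0 ± 5.49 FPKM with shCNKSR2_1 and 77.1 ± 2.54 with shCNKSR2_2, against 51.5 ± 1.98 with shControl. Zwilch, a checkpoint protein of the same region, fell by 0.31 and 0.29.

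Of 8 condensin genes, 4 fell with each hairpin and 0 rose by limma, and none rose at an unadjusted p under 0.05 either. That is 50% lower, against 19.3% of all genes with shCNKSR2_1 and 28.2% with shCNKSR2_2. The shares of all genes called higher were 13.6% and 20.0%. Ncaph, a subunit that closes the condensin ring, fell by 0.20 and 0.26 (adjusted p = 5.51e-04 and 4.77e-05). Of 16 genes of the anaphase-promoting complex and its regulators, 4 fell and 0 rose with shCNKSR2_1 by limma (2 were higher at an unadjusted p under 0.05), and 6 fell and 3 rose with shCNKSR2_2, with the core subunits Cdc27 at -0.24 and -0.23 and Anapc13 at -0.21 and -0.36. The shares lower were 25% with shCNKSR2_1 and 37.5% with shCNKSR2_2, and 18.75% were higher with shCNKSR2_2. Among 17 genes of transcriptional control, 4 fell and 1 rose with shCNKSR2_1, and 2 fell and 4 rose with shCNKSR2_2. In either direction that is 29.4% and 35.3%, against 32.8% and 48.2% of all genes. Mybl2, which encodes B-MYB, fell by 0.20 with shCNKSR2_1 (adjusted p = 0.0204) and lay at -0.13 with shCNKSR2_2 (adjusted p = 0.0811). The E2F partner gene Tfdp2 fell by 0.39 with both hairpins. E2f5 rose by 0.17 and 0.32 (adjusted p = 0.0486 and 0.00139), and E2f1 rose by 0.21 with shCNKSR2_2 (adjusted p = 0.0123) and lay at 0.07 with shCNKSR2_1.

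**Figure D5:**
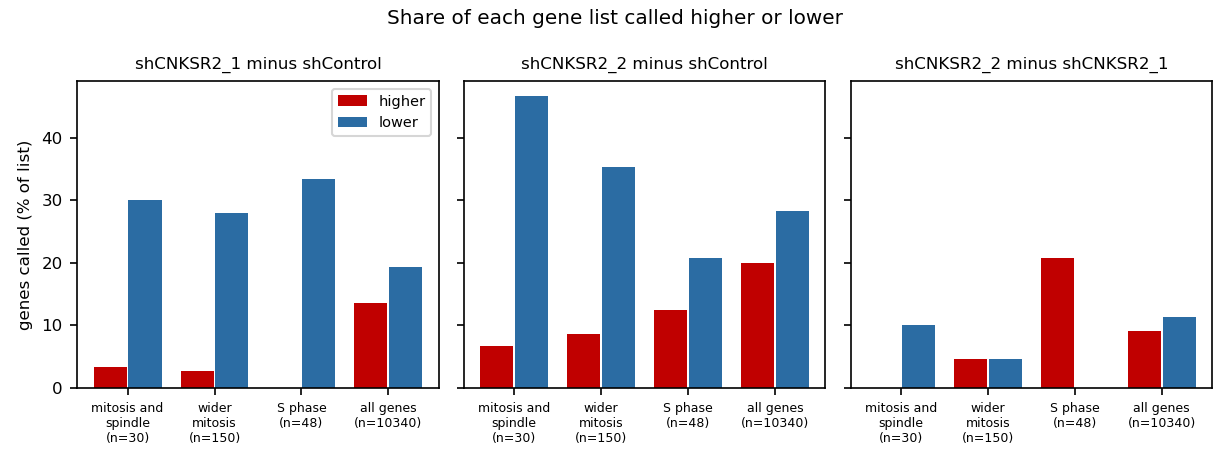
Share of each gene list called higher or lower (% of the genes measured) for shCNKSR2_1 minus shControl, shCNKSR2_2 minus shControl and shCNKSR2_2 minus shCNKSR2_1, with all 10340 genes as background. In both comparisons with shControl, lower exceeds higher over the 30 mitosis and spindle genes and over the 150 other mitosis genes, each list counted whole, and in the direct comparison 0 S phase genes are lower and 0 of the 30 mitosis and spindle genes are higher.

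Genes of DNA replication and S phase, the closest neighbours of mitosis in the cell cycle, were counted for comparison. With shCNKSR2_1, 16 of 48 fell and 0 rose (1 higher at an unadjusted p under 0.05), and with shCNKSR2_2, 10 fell and 6 rose. The shares lower were 33.3% and 20.8%, against 19.3% and 28.2% of all genes, and 12.5% were higher with shCNKSR2_2, against 20.0% of all genes. The count of 6 was 1 without shCNKSR2_2 replicate 2 or shControl replicate 1, 3 without shCNKSR2_2 replicate 3 or shControl replicate 2, 2 without the 3 GC-linked libraries and 12 with the GC trend removed. Between the hairpins, 10 were higher with shCNKSR2_2 and 0 lower by limma (18 and 1 at an unadjusted p under 0.05), while the mitosis and spindle genes had 3 lower and 0 higher. Of all genes, 9.13% were higher and 11.4% lower. The count of 10 was 4 without shCNKSR2_2 replicate 2 or 3, 6 without the 3 GC-linked libraries and 20 with the GC trend removed. Tk1, the thymidine kinase of S phase, fell by 0.41 and 0.37 (adjusted p = 3.47e-04 and 3.40e-04). Fibroblast markers differed as well, with 7 of 11 lower and 3 higher with shCNKSR2_2 and 2 lower and 3 higher with shCNKSR2_1. Their summed level was 7766 to 7979 FPKM with shCNKSR2_1, 7166 to 7715 with shCNKSR2_2 and 6973 to 7239 with shControl, and its part in the changes of the mitosis and spindle genes was not tested.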

How the data were processed

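RNA of 9 NIH 3T3 cultures was prepared with a stranded mRNA kit, per the labels. The authors deposited FPKM values, 1 column per library, for 10340 genes, all above 1 FPKM in every library. Per the submitters' processing notes, STAR 25.1b (version as written there), Cufflinks 2.2.1 and the mouse build mm9 were used; the annotation is not given in the sources used here. Here, log2(FPKM + 1) was fitted with limma 3.58.1 in R 4.3.3, as 3 group means over all 9 libraries with a variance trend and 6 residual degrees of freedom. P-values were adjusted by Benjamini-Hochberg over all genes of a comparison and called under 0.05. The code was tested on simulated data. Because depth is unknown, no counting intervals are given. The members and lists were chosen with earlier results of these data known. Outside the 30 genes, up to 4 called genes per list with the largest mean absolute change over both hairpins could be named.

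Deviations of same-numbered libraries of shCNKSR2_1 and shControl correlated at r = 0.12, 0.18 and 0.43 over all genes. Only 3 of 9 libraries correlated best with one of their own number, which does not establish a pairing. No pairing by number was read from the labels. The main fit did not pair libraries, and replicate numbers entered only in the replicate block, an alternative. Replicate 3 of shCNKSR2_1 and of shControl is GC-linked, and whether that trend is what correlates was not tested. Libraries of shCNKSR2_2 did not deviate together with same-numbered libraries of shControl (r = -0.32, 0.19 and -0.21). Alternatives were other pseudocounts (0.1 and 0.01), a mean of at least 5 FPKM, median-ratio rescaling, quantile normalization, no variance trend, a fit of only the groups compared, a replicate block over all 9 libraries and each library left out. Removal of a GC trend (loess, GC content from GENCODE vM21 for 9644 genes by symbol), leaving out the 3 GC-linked libraries, a fit with shCNKSR2_1 as replicate 1 alone and the partner ratios were added after seeing the data. Promoter windows came from RefSeq and were matched by symbol.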

Additional observations from a re-analysis of the deposited data

Results flagged for a closer look

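For 3 genes the effect differed between the hairpins in limma's direct test. Nuf2 was lower with shCNKSR2_2 than with shCNKSR2_1 by a log2 difference of -0.24 (adjusted p = 0.00489), Top2a by -0.17 (adjusted p = 0.0147) and Bub1b by -0.12 (adjusted p = 0.0294). In each case all 3 libraries with shCNKSR2_2 lay below all 3 with shCNKSR2_1. The difference of Nuf2 passed under all alternatives run, while that of Top2a missed the threshold under quantile normalization and that of Bub1b on leaving out any 1 of 5 libraries. Their cause was not tested.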

How the results depend on the processing

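The replicate block changed no call among the 30 genes: 9 were lower and 1 higher with shCNKSR2_1, 14 and 2 with shCNKSR2_2, and 3 and 0 between the hairpins. It left all other counts within 1.5 times; same-numbered libraries correlated best for 3 of 9 libraries. No direction of a called gene reversed. With shCNKSR2_1 the genes called higher numbered 4 under median-ratio rescaling, 0 under quantile normalization, 5 with the GC trend removed, 0 without the GC-linked libraries and 0 with replicate 1 alone, where 4 were called, 4 of them lower; that fit has 1 shCNKSR2_1 library, assumed to vary like the other groups, and its counts are not comparable with those from 3. The median log2 fold change was -0.032, -0.054, -0.022 and -0.072 under the first 4 of these; with shCNKSR2_2 it was -0.053 under median-ratio rescaling and -0.044 with the GC trend removed, where 4 were higher. Between the hairpins, 5 were called with the GC trend removed, 5 lower.

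Of the other mitosis genes, 8, 9 and 12 were higher with shCNKSR2_1 (median-ratio, quantile, GC trend removed); with replicate 1 alone 27 were called, 1 higher and 26 lower. With shCNKSR2_2, 25 were higher with the GC trend removed. Between the hairpins, 4 were lower under quantile normalization; 7 were called (3 higher, 4 lower) in the fit of only these groups, 26 (14 and 12) with the GC trend removed and 8 (3 lower) without the GC-linked libraries; 12 were higher with replicate 1 alone. Of the S phase genes, 1 was higher with shCNKSR2_1 under each of the first 3 settings; with shCNKSR2_2, 12 with the GC trend removed and 2 without the GC-linked libraries; between the hairpins 20, 6 and, with replicate 1 alone, 17, all higher.

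Leaving out 1 library at a time, members called ranged from 6 to 11 with shCNKSR2_1 (0 to 1 higher, 5 to 10 lower, median -0.058 to -0.041), from 13 to 16 with shCNKSR2_2 and from 2 to 6 between the hairpins, all lower. S phase genes higher ranged from 0 to 2 with shCNKSR2_1, from 1 to 9 with shCNKSR2_2 (10 to 20 called) and from 4 to 11 between the hairpins. Other mitosis genes higher ranged from 7 to 16 with shCNKSR2_2; between the hairpins 3 to 19 were called, 1 to 9 higher and 2 to 10 lower. The causes of these shifts were not tested. Depth is unknown, and 3 libraries a group limit the precision.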
